A study of Mus musculus with 12 samples.

Results

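The myocardium of 8 diabetic mice was compared with that of 4 control mice, to find changes shared by diabetic hearts with and without angiotensin IV. All 12 arrays of the series entered the comparison. The 4 negative control mice (NC) were injected into the peritoneum with vehicle for 5 days. The diabetic mice received streptozotocin, a toxin taken up by the insulin-secreting beta cells of the pancreas, by the same route for 5 days and were kept if their fasting blood glucose was at least 16.7 mM 2 weeks later. Of them, 4 had no other treatment (DM). The other 4 were also infused with angiotensin IV (AngIV), a peptide fragment of angiotensin II, at 2.88 mg/kg/day from the end of week 8 to the end of week 24. The labels give 6 months for all tissue. Strain, sex and the hour of tissue collection are not given in the sources used here, and no non-diabetic mice given angiotensin IV were analysed here. The titles number the mice 1 to 4 in each group, without stating that equal numbers belong together. Titles, source names and the series design give the groups used here, while the labels' disease state tag calls the NC mice diabetic and the AngIV mice negative controls and was not used.

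Signals are log2 values from Affymetrix arrays, made by the authors with RMA, so a difference of 1 is a doubling of signal. A gene was called when the limma contrast between the average of the DM and AngIV means and the NC mean reached a Benjamini-Hochberg adjusted p under 0.05 over the 13653 genes tested. A called gene was a shared change when DM minus NC and AngIV minus NC had the same sign and each had an unadjusted p under 0.05. Both of these comparisons rest on the same 4 NC arrays. The 95th percentile of negative control probe sets, between 5.39 and 5.60 on the 12 arrays, served as the background level, and no ratio is given for a gene whose NC or diabetic mean lay under it.

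Insulin holds the FoxO transcription factors out of the nucleus of heart muscle cells, and with little insulin they turn on genes of protein breakdown, stress defence and sparing of glucose. A heart short of insulin also takes up and burns more fatty acids, which activate PPAR receptors and their target genes. Heart muscle cells keep their own circadian clock, in which BMAL1 (the product of Arntl) and CLOCK turn on the Per and Cry repressors and the REV-ERB receptors, and the REV-ERB receptors in turn repress Arntl. Glucocorticoid hormone acts on the heart through a nuclear receptor that turns on genes such as Fkbp5, Zbtb16 and the metallothioneins.

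In the diabetic hearts the clock activators Arntl and Clock fell, while Per2, Per3, Nr1d2 and Tef rose. The means of Per2 and Tef lay under the background level in both NC and diabetic arrays. The glucocorticoid-responsive genes Zbtb16, Fkbp5, Mt1 and Mt2, the FoxO-regulated genes Pik3ip1 and Fbxo32 and the lipid genes Pnpla2, Cpt1a and Acot1 also rose, and Abat, Myl1 and the collagen genes Col3a1 and Col6a2 fell. In 12 fits that each left out 1 array, Fkbp5, Cpt1a, Acot1, Col3a1 and Col6a2 were called in 4, 5, 6, 4 and 2. The other genes of this summary named as higher or lower were called in all 12. Foxo1 and the 34 genes tested of autophagy initiation and conjugation were not called. Of 13653 genes, 180 were called (1.32%), 124 of them higher (0.908%) and 56 lower (0.41%) in the diabetic hearts. So 68.9% of called genes were higher, and lists with few called members are to be read against that share. The change was shared by both diabetic groups for 175 genes (1.28%), 120 higher (0.879%) and 55 lower (0.403%). A pooled call makes a shared change likely, and asking that DM and AngIV each be called left 3 genes. In 127 of the 180, the 8 diabetic arrays lay wholly above or below the 4 NC arrays, 86 above and 41 below, against 345 of all genes tested (2.53%), 1.44% above and 1.09% below. The 180 were called on these same arrays, so their larger share without overlap follows from the call and adds no support. Over all genes 50.1% had a positive and 49.9% a negative difference, and 16.4% had an unadjusted p under 0.05, 9.02% with a positive and 7.33% with a negative difference. The median difference was 0.64 among the higher genes and -0.53 among the lower genes, and 0.00 over all genes. Of the 180 genes, 45 had means under the background level in both NC and diabetic arrays and 24 in 1 of them. Called changes were larger in AngIV than in DM for 146 genes and larger in DM for 34, which is 81.1% against 59.2% of all genes with AngIV farther from NC on the side of the pooled change. Set alone against NC, DM had 3 called genes (0.022%) and AngIV 293 (2.15%), 208 higher (1.52%) and 85 lower (0.623%). Between AngIV and DM no gene was called by limma (smallest adjusted p 0.177), and 1199 genes (8.78%) had an unadjusted p under 0.05. That count of 0 does not show that the diabetic groups are alike, and 68 of the 180 called genes had an unadjusted p under 0.05 between AngIV and DM.

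Atrial markers were uneven between arrays. Myl7, the regulatory myosin light chain of the atria, lay at 10.08, 4.28, 7.90 and 3.72 in NC, at 8.86, 9.68, 3.97 and 8.10 in DM and at 3.94, 3.58, 3.53 and 3.84 in AngIV. It was above background on NC 1, NC 3, DM 1, DM 2 and DM 4 and on no AngIV array. The mean of 9 atrial markers ranged from 5.36 to 7.70 in NC, from 5.06 to 7.56 in DM and from 5.36 to 5.67 in AngIV, and none of them was called. On the 7 arrays low in Myl7 all 180 genes kept the sign of their difference. The median size was 0.58, against 0.62 on all arrays. The 180 were called on arrays that include these 7, so kept signs and similar sizes largely follow from the call. They cannot show whether the calls are free of atrial content. With 1 DM array left there, a single gene, Zbtb16, stayed called. Ventricular markers such as Myh6 and Mb were bright in all groups. In bulk tissue, fewer cells of a type and less RNA per cell cannot be told apart.

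The number of called genes depended on single arrays. It was 77, 53, 49 and 61 without NC 1, 2, 3 and 4, and 125, 77, 214 and 338 without DM 1, 2, 3 and 4. Without AngIV 1, 2, 3 and 4 it was 189, 113, 86 and 131. In every one of these 12 fits 30 of the 180 genes were called, 20 of them higher and 10 lower. They include the clock genes Arntl, Clock, Per2, Per3, Nr1d2, Tef and Tspan4, the metallothionein genes Mt1 and Mt2, Zbtb16, Fbxo32, Pik3ip1, Pnpla2, Myl1, Abat and Epha4. For genes that lost the call in some of these 12 fits, the number of fits in which they were called is given beside the p.

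**Figure D1:**
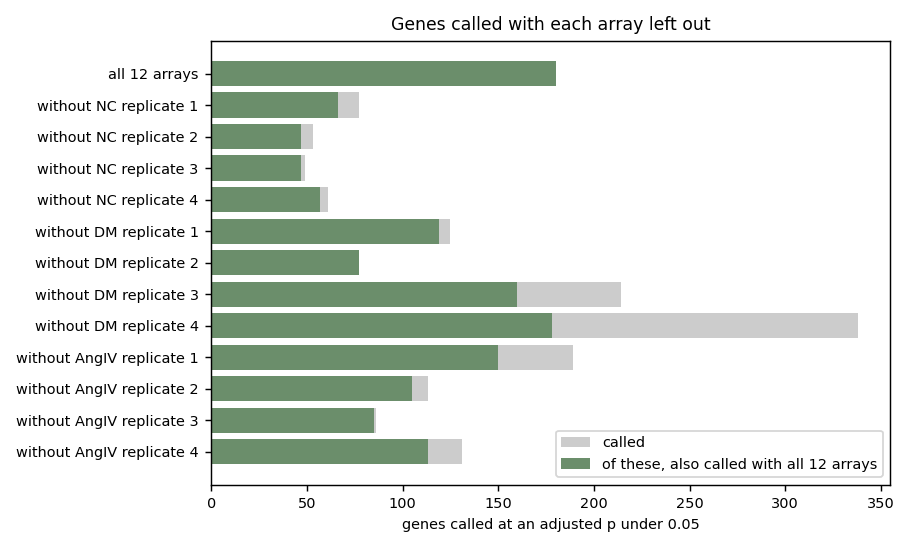
The horizontal axis gives the number of genes called (limma, adjusted p under 0.05, all diabetic against NC) and each bar is a fit with all 12 arrays or with the named array left out. The green part of a bar counts genes that were also called with all 12 arrays. Counts ran from 49 without NC 3 to 338 without DM 4, against 180 with all arrays.

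The gene with the smallest p in the pooled contrast was Arntl, which encodes BMAL1, the activator at the core of the circadian clock. Arntl signals were 5.72, 5.94, 5.89 and 5.57 in NC, 4.44, 4.21, 4.51 and 4.44 in DM and 3.52, 3.64, 3.55 and 4.10 in AngIV. All NC arrays were above all diabetic arrays, and the AngIV arrays were below the DM arrays. The pooled difference was -1.73 (SE 0.12, limma adjusted p = 4.14e-06), made of -1.38 in DM and -2.07 in AngIV. Its diabetic mean was under the background level, so no ratio is given. Clock, the partner of BMAL1, fell from 7.75 to 7.87 in NC to 7.46, 7.23, 7.44 and 7.54 in DM and 7.28, 7.20, 7.13 and 6.99 in AngIV (-0.52, SE 0.09, limma adjusted p = 0.0119, a 1.44-fold lower signal). Again no diabetic array reached the NC range.

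Several repressors of the clock loop were higher. Per2 stood at 4.80, 4.38, 4.54 and 4.70 in NC, 5.42, 5.32, 5.11 and 5.02 in DM and 5.71, 6.0, 5.54 and 5.68 in AngIV. The difference was 0.87 (SE 0.11, limma adjusted p = 0.00298), and its NC and diabetic means both lay under background. The 3 groups did not overlap, in the order NC, DM, AngIV. Per3, another period gene, rose from 5.56, 4.92, 5.39 and 5.56 in NC to 6.31, 6.46, 6.03 and 5.92 in DM and 6.74, 6.55, 6.50 and 6.39 in AngIV (1.0, SE 0.13, limma adjusted p = 0.00333), from an NC mean under background. Every diabetic array was above every NC array. Nr1d2, which encodes REV-ERB beta, a repressor of Arntl, rose 1.54-fold, from 6.91 to 7.38 in NC to 7.57 to 8.07 in the diabetic arrays (limma adjusted p = 0.0098).

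Ciart, whose product CHRONO represses BMAL1 and CLOCK, spread widely, and its NC mean lay under background. It stood at 4.16, 3.76, 3.89 and 5.37 in NC, at 4.43, 5.50, 6.12 and 6.16 in DM and at 6.04, 5.66, 5.66 and 5.73 in AngIV. DM 1 lay inside the NC range and the other diabetic arrays above it. The difference of 1.37 (SE 0.31, limma adjusted p = 0.0456) was called in 2 of the 12 fits with an array left out, where it ranged from 1.19 to 1.72. Of 18 core clock genes tested, 4 rose (Per2, Per3, Nr1d2, Ciart), 2 fell (Arntl, Clock) and 12 were not called. Called members made up 33.3%, against 1.32% of all genes tested. The median difference of the 18 was 0.25.

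The called clock output genes, which BMAL1, CLOCK and their partners drive, were all higher. Of 14 tested, 4 rose, none fell and 12 had a positive difference, with a median of 0.40. That is 28.6% called, against 1.32% of all genes, of which 50.1% had a positive difference. Tspan4, a tetraspanin whose expression is known to cycle in many tissues, rose 1.98-fold, from 5.52, 5.45, 5.65 and 5.52 in NC to 6.39, 6.73, 6.13 and 6.15 in DM and 6.96, 6.56, 6.74 and 6.48 in AngIV (0.99, SE 0.12, limma adjusted p = 0.00225). Its NC arrays sat at the background level and no diabetic array reached down to them. Tef, a D-box-binding factor, rose by 0.58 below background, with 4.36 to 4.73 in NC and 5.02 to 5.38 in the diabetic arrays (limma adjusted p = 0.0119). Wee1, a cell cycle kinase under clock control, rose 1.56-fold (limma adjusted p = 0.0188, 10 of 12 fits), with AngIV arrays at 6.36, 6.73, 6.54 and 6.42 and DM arrays at 6.48, 5.96, 5.95 and 5.88 against 5.48 to 5.80 in NC. Usp2, a deubiquitinase, rose 1.48-fold (limma adjusted p = 0.0491) and was called in 2 of 12 fits, with DM 1 within the NC range.

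Other members of these lists did not pass the test. Dbp, which like Tef binds D-boxes, stood at 7.82 to 8.77 in NC and at 8.23 to 9.69 in the diabetic arrays (0.71, limma adjusted p = 0.167). Nr1d1, which encodes REV-ERB alpha, had a difference of -0.25 and Per1 of 0.35 (limma adjusted p = 0.585 and 0.244). These 3 were picked after their values were seen, to show clock genes whose NC and diabetic arrays overlapped. The hour of collection was not tested.

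**Figure D2:**
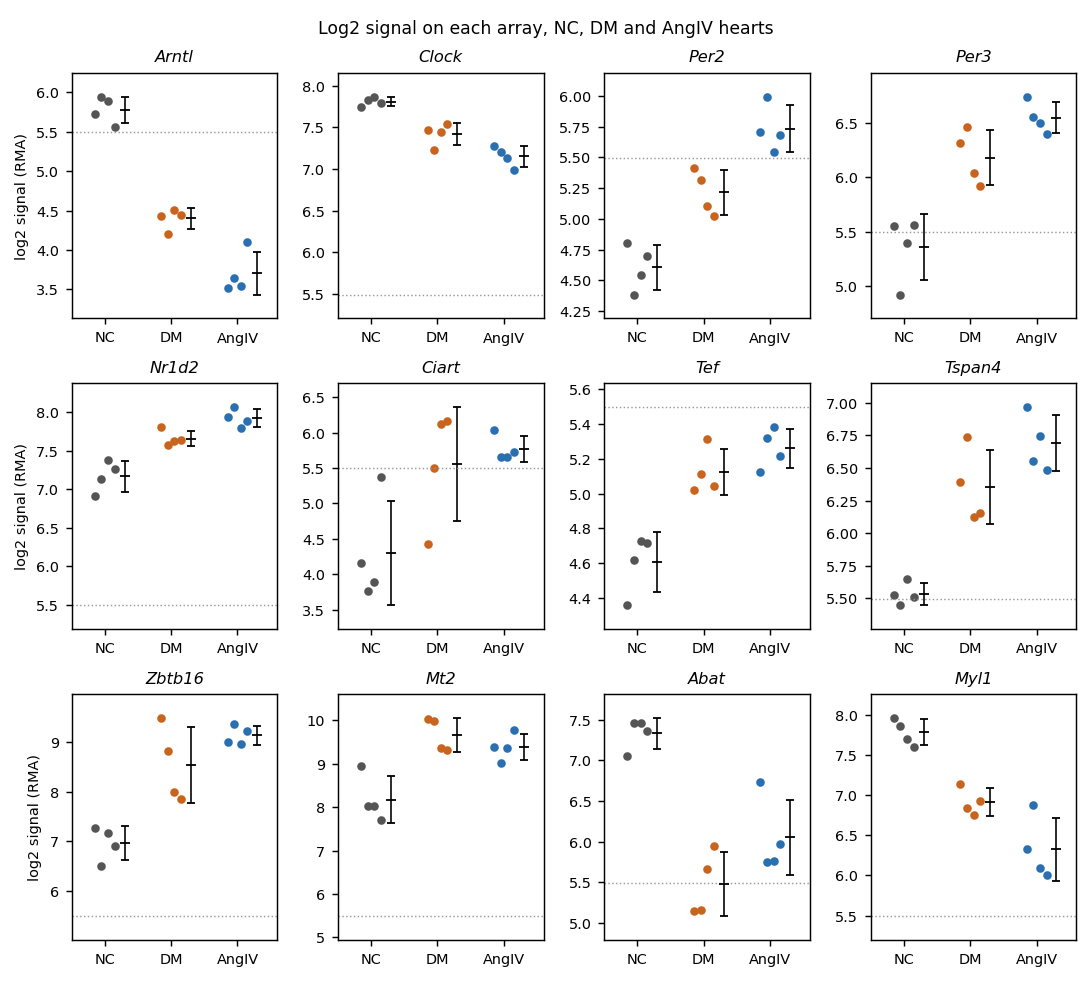
Each panel plots the log2 signal of 1 gene on the 4 NC, 4 DM and 4 AngIV arrays; bars give the mean and SD of each group and the dotted line the background level of negative controls, between 5.39 and 5.60. Arntl, Clock, Abat and Myl1 are lower and the other genes higher in the diabetic arrays, and only Ciart has a diabetic array within the NC range.

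The promoters of 2 clock genes and 1 metallothionein gene are printed because each holds several copies of a motif bound by a regulator of its pathway. Sequences are from RefSeq, mouse build GRCm38.p6, and cover the 250 bases before the annotated start, 5′ to 3′ on the strand of the gene, with the matches, on either strand, of the motif described for that promoter in capitals and matches of other motifs left in lower case. The Ciart promoter (chr3:95882229-95882478, minus strand) held 3 copies of the E-box CACGTG, the site of BMAL1 and CLOCK, the nearest of them 44 to 39 bases before the start.
Ciart: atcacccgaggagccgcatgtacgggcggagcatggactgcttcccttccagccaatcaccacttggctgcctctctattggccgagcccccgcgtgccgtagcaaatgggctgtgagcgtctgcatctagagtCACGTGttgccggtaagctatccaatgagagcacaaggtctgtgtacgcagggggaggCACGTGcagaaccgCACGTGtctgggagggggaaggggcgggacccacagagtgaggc
The Per3 promoter (chr4:151044666-151044915, minus strand) held 2 copies of the D-box TTATGTAA, the site of TEF and its relatives, at 205 to 198 and 158 to 151 bases before the start.
Per3: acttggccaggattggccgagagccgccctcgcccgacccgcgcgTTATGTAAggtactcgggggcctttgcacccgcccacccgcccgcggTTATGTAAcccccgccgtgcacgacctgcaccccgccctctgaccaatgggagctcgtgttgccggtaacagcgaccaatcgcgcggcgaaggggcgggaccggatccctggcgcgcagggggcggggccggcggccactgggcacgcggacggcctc
The Mt2 promoter (chr8:94172368-94172617, plus strand) held 3 metal response elements, the site of the zinc-sensing factor MTF1, 1 of the form TGCGCNC and 2 of the form TGCACNC.
Mt2: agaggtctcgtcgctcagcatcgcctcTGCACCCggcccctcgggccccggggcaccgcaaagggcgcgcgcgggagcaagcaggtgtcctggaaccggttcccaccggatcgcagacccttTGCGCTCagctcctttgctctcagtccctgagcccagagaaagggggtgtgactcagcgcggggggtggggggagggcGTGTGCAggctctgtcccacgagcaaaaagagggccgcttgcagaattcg

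None of these copies overlapped a match of another motif searched. RefSeq promoters were found for 144 of the 180 called genes, 99 higher and 45 lower. The E-box occurred in 21 of the 99 higher genes (21.2%) and 5 of the 45 lower genes (11.1%), against 9.41% of the 10965 tested genes with a promoter and 6.86% of all 27025 genes in the table. Among the higher genes with an E-box were Ciart, Tef, Tspan4, Fkbp5, Cdk6, Cited2, Abca1 and Pfkfb3. The D-box was in 0.977% of all promoters, 0.547% of those of tested genes and, of the called genes, in Per3. The metal response element TGCGCNC occurred in 34 of the 99 higher genes (34.3%) and 9 of the 45 lower genes (20%), against 23% of tested genes and 14% of all. Its form TGCACNC occurred in 11 higher genes (11.1%) and 9 lower genes (20%), against 12.7% of tested genes and 11.8% of all, so single copies are common. The FoxO motif TGTTTAC was in 3 of the 99 higher genes (3.03%), against 2.64% of tested genes and 3.54% of all. A match is a string of letters in this window and shows no binding, and these shares were not tested.

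The called genes that respond to glucocorticoid hormone were all higher in the diabetic hearts. Of 23 tested, 5 rose, none fell and 19 had a positive difference, with a median of 0.45 (0.30 in DM and 0.59 in AngIV). In this list 21.7% were called, against 1.32% of all genes, of which 50.1% had a positive difference. Zbtb16, which encodes the transcription factor PLZF, rose 3.66-fold. It stood at 7.26, 6.51, 7.16 and 6.91 in NC, 9.48, 8.82, 7.99 and 7.85 in DM and 9.0, 9.37, 8.95 and 9.22 in AngIV. No diabetic array was as low as any NC array, and DM 1 and 2 were above DM 3 and 4. The difference was 1.87 (SE 0.25, limma adjusted p = 0.00333), and 1.85 on the arrays low in Myl7.

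Fkbp5, an immunophilin that restrains the glucocorticoid receptor, had the largest mean rise among called genes above background. It stood at 6.35, 4.88, 5.93 and 5.77 in NC, 8.69, 7.76, 6.02 and 6.24 in DM and 7.64, 8.69, 8.25 and 8.55 in AngIV. DM 3 and DM 4 were within the NC range, and DM 1, DM 2 and all AngIV arrays far above it. The difference of 2.0 (SE 0.42, limma adjusted p = 0.0317) was called in 4 of the 12 fits with an array left out. Pik3r1, the regulatory subunit of PI3-kinase, also had DM 1 and 2 above DM 3 and 4, at 8.53, 8.49, 7.98 and 7.87 in DM against 7.60 to 7.97 in NC and 8.38, 8.88, 8.67 and 8.98 in AngIV (0.62, limma adjusted p = 0.0497, 3 of 12 fits).

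The metallothioneins, small proteins that bind zinc and copper and are induced by metals as well as by glucocorticoids, rose in both diabetic groups. Mt2 stood at 8.94, 8.03, 8.03 and 7.70 in NC, 10.02, 9.98, 9.35 and 9.31 in DM and 9.39, 9.02, 9.35 and 9.77 in AngIV, a 2.55-fold rise (1.35, 1.49 in DM and 1.21 in AngIV, SE 0.21, limma adjusted p = 0.0101). Every diabetic array was above NC 1, the highest NC array. Mt1 rose 1.63-fold, from 9.69 to 9.87 in NC to 10.10 to 10.78 in the diabetic arrays (0.70, SE 0.12, limma adjusted p = 0.0134). The difference between AngIV and DM in Mt1 was 0.00 (95% interval -0.29 to 0.29).

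The called genes of the FoxO list were all higher, while Foxo1 itself was not called. Of 31 genes in the FoxO list, 5 rose, none fell and 27 had a positive difference, with a median of 0.34. This is 16.1% called, against 1.32% of all genes, of which 50.1% had a positive difference. In 9 of the 31 the diabetic arrays did not overlap the NC arrays, against 2.53% of all genes tested. The list shares Tsc22d3 with the glucocorticoid list, and Cited2 and Sesn1 also respond to other factors. Pik3ip1, an inhibitor of PI3-kinase, stood at 7.95, 7.0, 7.52 and 7.61 in NC, 8.76, 8.91, 8.14 and 8.36 in DM and 8.45, 8.81, 8.71 and 9.21 in AngIV, a 2.22-fold rise (1.15, SE 0.18, limma adjusted p = 0.0101). No diabetic array overlapped NC.

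Fbxo32, which encodes the muscle ubiquitin ligase atrogin-1, was nearly constant in NC, at 7.59, 7.46, 7.57 and 7.61, and stood at 8.36, 8.11, 7.91 and 7.86 in DM and 8.25, 8.35, 8.34 and 8.60 in AngIV. It rose 1.59-fold (0.67, SE 0.10, limma adjusted p = 0.00932) with no overlap. It was the one called gene of 28 muscle ubiquitin ligases and proteasome subunits. Sesn1, a sestrin that restrains mTORC1, rose 1.8-fold, from 8.22 to 8.48 in NC to 8.49 to 9.83 (limma adjusted p = 0.0167, 10 of 12 fits), and Cited2, a co-regulator that binds CBP and p300, rose 1.94-fold (limma adjusted p = 0.0205, 9 of 12 fits). For Sesn1 the arrays DM 3 and DM 4 lay just above NC, and for Cited2 the array DM 4 lay within NC.

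Foxo3 rose 1.32-fold, from 5.74, 5.77, 5.54 and 5.73 in NC to 5.96, 5.95, 5.89 and 6.01 in DM and 5.98, 6.34, 6.36 and 6.29 in AngIV (0.40, limma adjusted p = 0.0399, 3 of 12 fits). Foxo1, the factor named in the series title, stood at 5.74, 5.51, 5.41 and 5.66 in NC, 6.0, 5.76, 5.49 and 5.64 in DM and 5.72, 5.25, 5.73 and 5.72 in AngIV. Its 3 groups overlapped. The pooled difference was 0.08 (95% interval -0.17 to 0.34, limma adjusted p = 0.79), and AngIV minus DM was -0.12 (95% interval -0.41 to 0.17). These are levels of mRNA, and the place and phosphorylation of the FoxO proteins were not measured.

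The series title also names autophagy, and no gene of the autophagy, mitophagy and lysosome lists was called. Of 34 genes of autophagy initiation and conjugation none passed the test, and the median was 0.07. An unadjusted p under 0.05 was found for 7 of the 34, all with a positive difference. Over all genes, 9.02% had such a p with a positive difference. Map1lc3b, which encodes the autophagosome protein LC3B, was 8.64 ± 0.07 in NC and 8.96 ± 0.18 in the diabetic arrays (mean ± SD, n = 4 and n = 8), a difference of 0.32 (95% interval 0.12 to 0.53, limma adjusted p = 0.105). Sqstm1, the cargo receptor p62, differed by 0.30 (95% interval 0.10 to 0.51, limma adjusted p = 0.123) and Ulk1, the initiating kinase, by 0.39 (limma adjusted p = 0.117). Becn1, which encodes beclin 1, had a difference of 0.03 (95% interval -0.15 to 0.20, limma adjusted p = 0.917), and its sign turned in 2 other fits. Bnip3, a mitophagy receptor, had diabetic arrays at 8.94 to 9.66, all above the NC range of 8.54 to 8.86, and missed the threshold (limma adjusted p = 0.0614). Among 22 lysosomal and 14 mitophagy genes none was called.

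Of 29 genes of insulin and AKT-mTOR signalling 1 was called, Pik3r1. Insr, the insulin receptor, had a difference of 0.42 (95% interval 0.18 to 0.66, limma adjusted p = 0.0746). Irs1, an adaptor of that receptor, had signals below background in all 3 groups, with a difference of 0.14 (limma adjusted p = 0.611). The glucose transporter genes Slc2a4 (GLUT4) and Slc2a1 (GLUT1) differed by -0.11 and -0.16 (limma adjusted p = 0.62 and 0.616). The Slc2a1 difference was -0.46 in DM and 0.13 in AngIV, so the pooled value joins groups on either side of NC.

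The called genes of the fatty acid lists were all higher. Of 29 genes of fatty acid activation and beta-oxidation, 1 rose and 11 had an unadjusted p under 0.05 with a positive difference. Over all genes tested, 0.908% were called higher and 9.02% had such a p with a positive difference. Cpt1a, the carnitine acyltransferase that admits long-chain fatty acids to mitochondria and that the heart expresses beside its muscle form, stood at 6.05, 6.47, 6.59 and 6.46 in NC, 7.48, 7.24, 7.03 and 6.72 in DM and 6.95, 7.71, 7.39 and 6.95 in AngIV. All diabetic arrays were above NC, a 1.73-fold rise (0.79, SE 0.17, limma adjusted p = 0.0317, 5 of 12 fits). Acot1, a cytosolic thioesterase that cleaves fatty acyl-CoA, rose 2.46-fold, from 5.90, 5.82, 6.23 and 5.68 in NC to 8.12, 7.85, 7.35 and 6.77 in DM and 5.95, 7.54, 6.98 and 7.09 in AngIV (limma adjusted p = 0.0306, 6 of 12 fits). AngIV 1 lay within the NC range of Acot1 and the other diabetic arrays above it. It was the one called gene of 14 thioesterases, pyruvate dehydrogenase kinases and uncoupling proteins, 9 of which had an unadjusted p under 0.05 and a positive difference.

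Of 25 genes of fatty acid uptake, lipolysis and lipid droplets 3 rose (12%, against 0.908% of all genes called higher). Pnpla2, the triglyceride lipase ATGL, rose 1.59-fold without overlap, from 9.64, 9.85, 9.74 and 9.74 in NC to 10.61, 10.43, 10.18 and 10.08 in DM and 10.20, 10.62, 10.51 and 10.63 in AngIV (0.67, SE 0.11, limma adjusted p = 0.0134). Fabp4, a fatty acid binding protein of capillary endothelium and adipocytes, rose 1.34-fold, from 10.72 to 10.89 in NC to 11.07 to 11.35 (limma adjusted p = 0.0205, 9 of 12 fits). Plin4, a lipid droplet coat protein, rose 1.53-fold (limma adjusted p = 0.0456, 3 of 12 fits), with DM 4 within the NC range. Of 4 adipocyte markers tested none was called, and all 4 had means under background. All 4 had a negative difference, as did 49.9% of all genes. None of 16 PPAR, PGC-1 and ERR regulators was called, among them Ppara (-0.12, limma adjusted p = 0.649) and Ppargc1a (0.46, limma adjusted p = 0.0635).

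Among genes of cholesterol handling, 20% of the LXR and lipogenic list and 11.1% of the sterol synthesis list were called, against 1.32% of all genes. Of 15 LXR targets and lipogenic genes 3 rose and none fell, while 7 had a positive and 8 a negative difference, with a median of -0.03. Mylip, the ligase IDOL that degrades the LDL receptor, rose 1.92-fold, from 6.32 to 6.70 in NC to 8.07, 7.67, 7.23 and 7.06 in DM and 7.33, 7.40, 7.63 and 7.64 in AngIV (limma adjusted p = 0.0134). Abca1, the cholesterol exporter, rose by 1.04 from below background (limma adjusted p = 0.0188, 9 of 12 fits), with DM 1 at the top of the 5.88 to 7.23 range. Scd4, a stearoyl-CoA desaturase of the heart, rose by 1.27, from 4.79, 5.28, 5.52 and 4.47 in NC to 7.69, 6.57, 6.67 and 5.98 in DM and 5.10, 5.93, 6.15 and 6.22 in AngIV (limma adjusted p = 0.0424, 3 of 12 fits). AngIV 1 lay within its NC range. The array's probes for Scd4 may read related Scd genes, which was not tested. Of 18 sterol synthesis genes 2 fell and 12 had a negative difference, against 49.9% of all genes. The median of the 18 was -0.17. Srebf2, the factor SREBP2 that drives the pathway, fell 1.25-fold with no overlap (limma adjusted p = 0.0491, 2 of 12 fits). Msmo1, a sterol methyl oxidase, fell by 0.71 on the log2 scale below background (limma adjusted p = 0.031, 7 of 12 fits).

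Breakdown of other fuels changed in few genes. Ivd, isovaleryl-CoA dehydrogenase of leucine breakdown, fell 1.43-fold, from 7.79, 7.87, 8.06 and 8.18 in NC to 7.09, 7.13, 7.48 and 7.57 in DM and 7.64, 7.66, 7.57 and 7.49 in AngIV (limma adjusted p = 0.0317, 5 of 12 fits). It was the one call among 19 genes of branched-chain amino acid breakdown (5.26%, against 1.32% of all genes called). Of the 19, 18 had a negative difference, against 49.9% of all genes. The median of the 19 was -0.17, with -0.27 in DM and -0.04 in AngIV. Pfkfb3, which makes the activator of phosphofructokinase, rose by 0.54 below background and was the one call among 29 genes of glucose use (limma adjusted p = 0.0297, 6 of 12 fits). Of the 29, 18 had a negative difference. At an unadjusted p under 0.05, 5 of them were higher and 6 lower. None of 26 TCA cycle genes and none of the 37 oxidative phosphorylation subunits in the list was called. Of 5 ketone genes none was called. Bdh1, beta-hydroxybutyrate dehydrogenase, spread from 5.53 to 7.56 in the diabetic arrays, where DM 4 and AngIV 1 reached the NC range of 7.23 to 8.23 (-1.40, limma adjusted p = 0.0685). Oxct1, the rate-limiting enzyme of ketone use, was lower on every diabetic array (9.37 to 10.38 against 10.42 to 10.47) and was not called (limma adjusted p = 0.136).

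**Figure D3:**
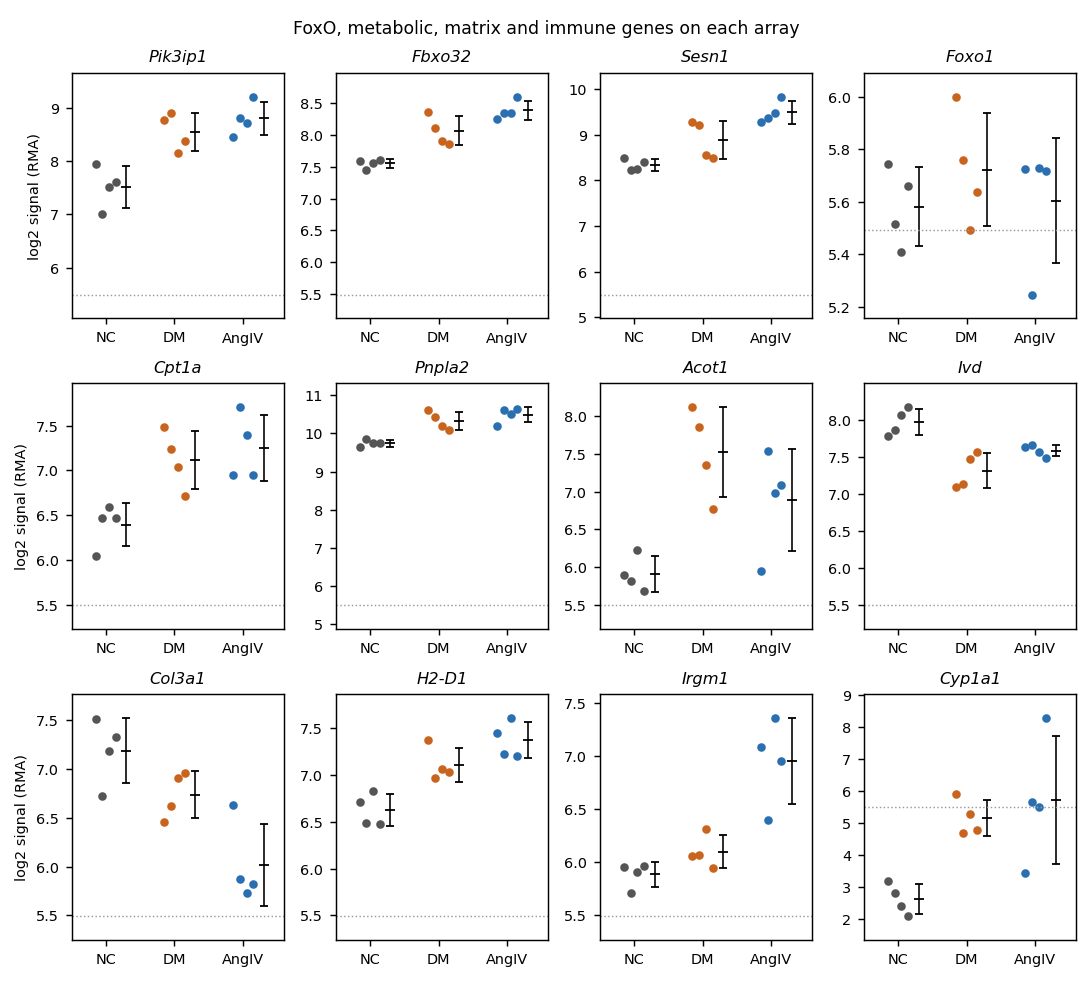
Each panel plots the log2 signal of 1 gene on the 4 NC, 4 DM and 4 AngIV arrays; bars give mean and SD and the dotted line the background level, between 5.39 and 5.60. Pik3ip1, Fbxo32, Pnpla2 and Cpt1a are higher on all diabetic arrays, Ivd is lower on all, the groups of Foxo1 overlap, and Irgm1 is high in AngIV, with DM near NC.

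Of 24 contractile protein genes 2 rose and 1 fell (12.5% called, against 1.32% of all genes). Myl1, a fast skeletal myosin light chain gene, stood at 7.96, 7.87, 7.70 and 7.60 in NC, 7.15, 6.83, 6.75 and 6.92 in DM and 6.32, 6.88, 6.09 and 6.0 in AngIV, a 2.24-fold fall (-1.16, SE 0.14, limma adjusted p = 0.00225). All diabetic arrays were below NC. None of 7 Schwann cell, mesothelial and skeletal muscle markers was called. Myom2, a protein of the sarcomere M-band, rose 1.58-fold (limma adjusted p = 0.0267, 7 of 12 fits) and Tcap, the titin cap at the Z-disc, rose 1.51-fold (limma adjusted p = 0.0378, 5 of 12 fits). DM 3 and DM 4 lay just above the NC range of Myom2, at 10.29, 10.61, 9.90 and 9.96 in DM against 9.56 to 9.89.

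Genes of cardiac stress were not called. Myh6 and Myh7 encode the fast and slow myosin heavy chains of the heart. Myh6 differed by 0.01 (95% interval -0.16 to 0.18, limma adjusted p = 0.973), a sign that turned in other fits. Myh7 stood at 10.27, 9.75, 10.22 and 10.01 in NC, 10.74, 11.58, 10.31 and 9.84 in DM and 10.98, 10.82, 11.44 and 11.57 in AngIV (0.84, limma adjusted p = 0.0976), with all AngIV arrays and 3 DM arrays above NC. Nppa, the atrial natriuretic peptide gene and itself one of the atrial markers, spread from 5.12 to 10.51 in the diabetic arrays. On the arrays with Myl7 under background it still ran from 5.12 on DM 3 to 9.65 on AngIV 4. The Nppa difference was -0.37 (95% interval -2.01 to 1.27), and that of Nppb, the B-type peptide gene, -0.05 (95% interval -0.82 to 0.72), and both signs turned in other fits.

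Other heart muscle genes stood out by size. Lrrc10, a cardiac leucine-rich repeat protein of the Z-disc, rose 1.82-fold, from 7.77, 7.61, 7.62 and 7.96 in NC to 8.16, 8.68, 8.19 and 7.99 in DM and 8.86, 8.93, 9.0 and 9.01 in AngIV (0.86, SE 0.12, limma adjusted p = 0.00384). Its AngIV arrays were above its DM arrays, by 0.70 (95% interval 0.41 to 0.99, adjusted p 0.182). Slc41a3, a magnesium transporter, fell 2.08-fold, from 7.99, 8.22, 8.21 and 8.05 in NC to 7.21, 6.97, 7.93 and 7.70 in DM and 6.73, 6.62, 6.55 and 6.79 in AngIV (limma adjusted p = 0.00406). Adcy6, a main adenylyl cyclase of heart muscle, rose 1.66-fold, from 7.64 to 7.95 in NC to 7.99 to 9.03 (limma adjusted p = 0.0134, 11 of 12 fits). None of 33 calcium handling and ion channel genes was called, and none of 14 genes of the renin-angiotensin system, among them the receptor gene Agtr1a (0.21, 95% interval -0.01 to 0.44).

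The called genes of the collagen and matrix list were all lower. Of 28 collagen and matrix genes 3 fell, none rose and 25 had a negative difference. The median was -0.23, with -0.08 in DM and -0.37 in AngIV. In this list 10.7% were called, against 1.32% of all genes, of which 49.9% had a negative difference. Col3a1, the chain of type III collagen, stood at 7.51, 6.72, 7.18 and 7.33 in NC, 6.45, 6.62, 6.91 and 6.95 in DM and 6.63, 5.88, 5.73 and 5.83 in AngIV, a 1.75-fold fall (limma adjusted p = 0.0371, 4 of 12 fits). DM 3 and DM 4 lay within the NC range, which NC 2 set at its lower end. Col6a2, of type VI collagen, fell 1.36-fold with no overlap (limma adjusted p = 0.0424, 2 of 12 fits), and Spon2, the matrix protein mindin, fell by 0.90 on the log2 scale below background (limma adjusted p = 0.00604). Col1a1 was not called (-0.30, limma adjusted p = 0.278). Timp3, an inhibitor of metalloproteinases, rose 1.74-fold (limma adjusted p = 0.0379, 4 of 12 fits), by 0.52 in DM and 1.09 in AngIV. Its DM 3 and DM 4 values lay within the NC range. Of 18 TGF-beta genes none was called, including Tgfb1 (0.10, limma adjusted p = 0.722). The mean of 9 fibroblast markers ranged from 7.08 to 7.65 in NC and from 6.94 to 7.45 in the diabetic arrays, and none of them was called.

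The called genes of the MHC class I and interferon lists were all higher, as were 68.9% of all called genes. Called members made up 11.8% and 8.7% of these lists, against 1.32% of all genes. Of 17 MHC class I genes 2 rose and 16 had a positive difference, against 50.1% of all genes. H2-D1, a class I heavy chain, rose 1.53-fold without overlap, from 6.71, 6.49, 6.83 and 6.47 in NC to 7.37, 6.97, 7.06 and 7.02 in DM and 7.45, 7.22, 7.61 and 7.20 in AngIV (limma adjusted p = 0.0167, 10 of 12 fits). H2-K1, another class I heavy chain, rose 1.45-fold (limma adjusted p = 0.031, 7 of 12 fits), with DM 3 within the NC range. These genes are near copies of each other, so their probes may share signal. None of 10 class II genes was called. Of 23 interferon-stimulated genes 2 rose, both below background: Ifit2 by 0.86 and Parp14 by 0.41 (limma adjusted p = 0.0156 and 0.0432, called in 11 and 2 of 12 fits).

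Irgm1, an immunity-related GTPase, was called without a shared change. It stood at 5.96, 5.71, 5.90 and 5.96 in NC, 6.06, 6.07, 6.31 and 5.95 in DM and 7.09, 6.40, 7.36 and 6.96 in AngIV. AngIV was above DM by 0.85 (95% interval 0.51 to 1.20, adjusted p 0.182), while DM overlapped NC. The pooled difference was called (limma adjusted p = 0.0392, 2 of 12 fits). The other called genes without a shared change were Rasl11b, Hikeshi, Fam117b and Art3, with DM differences of 0.16, -0.15, 0.51 and 0.35 beside AngIV differences of 0.80, -0.59, 1.38 and 0.89, called in 3, 2, 4 and 3 of 12 fits.

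None of the 20 genes in the macrophage marker list was called. Of these 20 markers 18 had a positive difference and 10 had one at an unadjusted p under 0.05. Over all genes tested, 50.1% had a positive difference and 9.02% had one at an unadjusted p under 0.05. The mean of the 20 markers ranged from 5.41 to 5.57 in NC, 5.38 to 6.40 in DM and 5.48 to 6.11 in AngIV. Ccl8, a monocyte chemokine, stood at 3.44, 3.14, 2.93 and 3.98 in NC, 7.60, 6.12, 6.41 and 3.14 in DM and 5.81, 7.06, 6.94 and 4.62 in AngIV. Its NC arrays were all far below background, DM 4 and AngIV 4 were below it too, and the difference was 2.59 (limma adjusted p = 0.0585). Mpeg1, the macrophage pore-forming protein, and Cd163, a haemoglobin scavenger receptor, differed by 1.30 and 1.02 (limma adjusted p = 0.0674 and 0.0734). Retnla, a marker of alternatively activated macrophages that was not in the macrophage list, was called and went the other way. It fell by 2.07 on the log2 scale, to levels under background. It stood at 6.16, 6.94, 6.55 and 5.25 in NC, 3.76, 3.98, 4.70 and 5.91 in DM and 4.25, 3.61, 3.68 and 3.31 in AngIV (SE 0.36, limma adjusted p = 0.0151, 10 of 12 fits), and DM 4 lay within NC.

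The plot of shared changes sets DM and AngIV side by side for the genes with the largest shared changes among those with an NC mean or a diabetic mean above background, so some were above it in only one of them. Among the falls, Abat, the enzyme that degrades GABA, stood at 7.06, 7.46, 7.46 and 7.36 in NC, 5.15, 5.16, 5.66 and 5.95 in DM and 6.73, 5.74, 5.76 and 5.97 in AngIV, a 2.97-fold fall (limma adjusted p = 0.00225) in which DM was the lower group. Epha4, a receptor for ephrins, fell 1.94-fold, from 6.54 to 6.81 in NC to 5.40 to 6.07 (limma adjusted p = 0.00225). It was the one call among 16 Eph receptors and ephrins. Itgb6, an integrin chain, Mal, a membrane raft protein, and Trp53i11, a p53-inducible gene, fell 1.7, 1.57 and 1.89-fold and were called in all 12 fits. Dad1, a subunit of the oligosaccharyltransferase, fell 1.59-fold (limma adjusted p = 0.0215, 9 of 12 fits). Lrrc3b and Klhdc8a fell to means under background without overlap, with differences of -1.02 and -1.0 (limma adjusted p = 0.0316 and 0.0156, 6 and 10 of 12 fits). Dcakd fell 1.57-fold and Tnfaip2, a gene induced by TNF, 1.67-fold (limma adjusted p = 0.0267 and 0.0307, 7 and 6 of 12 fits), and in both DM 3 and DM 4 lay within the NC range.

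Among the rises, Apod, a lipocalin that carries lipids, rose 2.7-fold, from 6.62, 5.94, 6.42 and 6.26 in NC to 9.0, 8.46, 7.28 and 7.08 in DM and 7.36, 7.26, 7.74 and 7.75 in AngIV (limma adjusted p = 0.0261, 6 of 12 fits). Etv5, an ETS factor downstream of growth factor signalling, rose by 1.36 from below background (limma adjusted p = 0.0181, 10 of 12 fits). Xdh, xanthine dehydrogenase, rose 1.99-fold (limma adjusted p = 0.0205, 9 of 12 fits), and Rasgef1b, a Ras exchange factor, rose by 1.15 from below background (limma adjusted p = 0.0252, 7 of 12 fits). DM 4 lay within the NC range of Etv5, and DM 3 within that of Xdh. Cdk6, a cyclin D kinase, rose 1.72-fold by 0.78 in DM and 0.79 in AngIV (limma adjusted p = 0.0101). Bcl2l1, which encodes the survival protein BCL-XL, rose 1.95-fold (limma adjusted p = 0.0448, 4 of 12 fits), with DM 4 within the NC range. Herpud1, a factor of ER-associated degradation, rose 1.77-fold (limma adjusted p = 0.0156, 11 of 12 fits), and Ier3, an immediate early gene, 1.56-fold (limma adjusted p = 0.0328, 7 of 12 fits). Ier3 was the one call among 24 immediate early genes, 16 of which had a negative difference, against 49.9% of all genes. At an unadjusted p under 0.05, 3 of the 24 were higher and 7 lower.

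**Figure D4:**
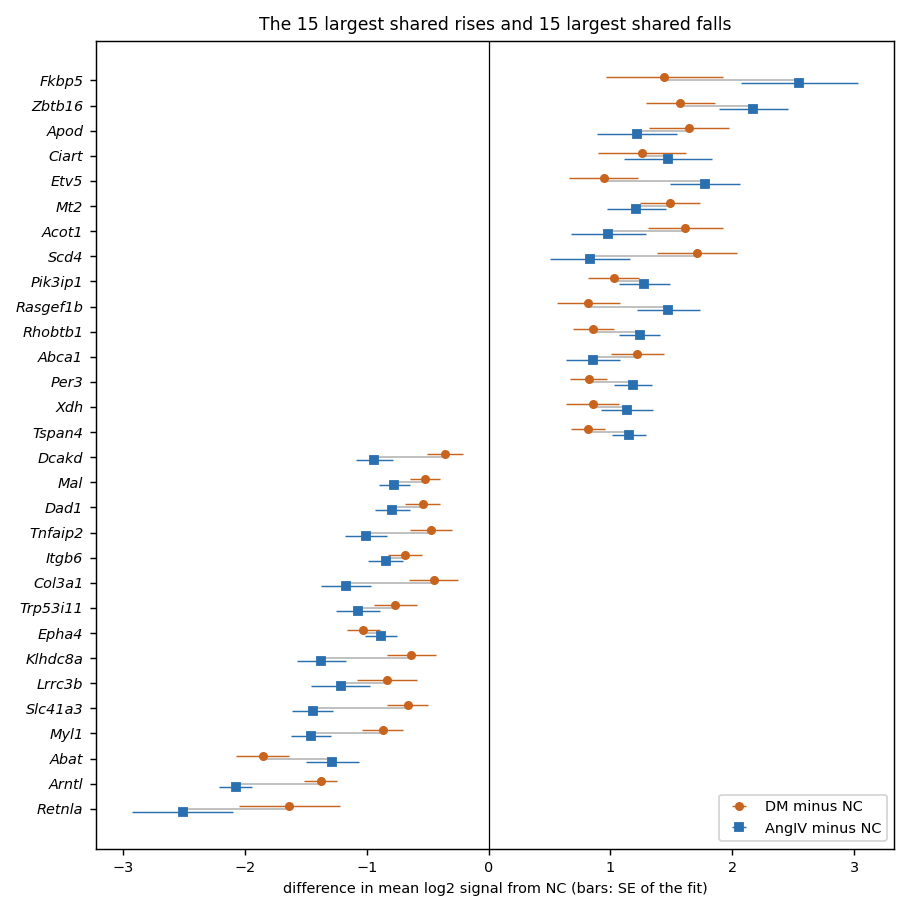
The horizontal axis gives the difference in mean log2 signal from NC for DM (circles) and AngIV (squares) with the SE of the limma fit, for the 15 largest shared rises and 15 largest shared falls; both differences use the same 4 NC arrays. The changes run from 2.0 for Fkbp5 to -2.07 for Retnla in the pooled contrast, with AngIV farther from 0 than DM for most genes and DM farther for Apod, Mt2, Acot1, Scd4, Abca1, Abat and Epha4.

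Cyp1a1, the cytochrome P450 induced through the aryl hydrocarbon receptor, had the largest called difference of all. It stood at 3.19, 2.81, 2.42 and 2.10 in NC, 5.93, 4.70, 5.30 and 4.78 in DM and 3.43, 5.67, 5.52 and 8.30 in AngIV. All diabetic arrays were above NC, AngIV 4 far above the rest and AngIV 1 just above the NC arrays. The difference was 2.82 (SE 0.59, limma adjusted p = 0.0317, 4 of 12 fits), and the means of NC and of the diabetic arrays lay under the background level. None of the other 7 genes of the aryl hydrocarbon receptor list was called.

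**Figure D5:**
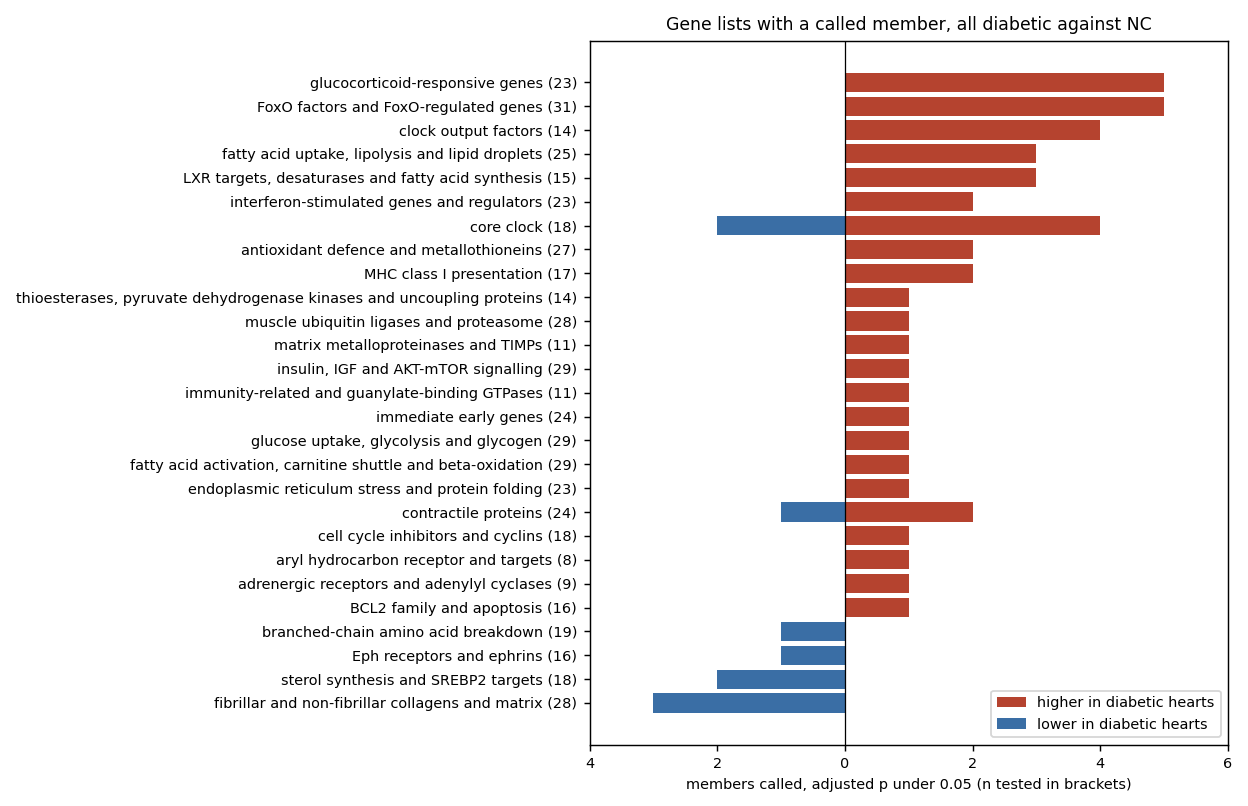
Bars count the members of each gene list called at a limma adjusted p under 0.05 that were higher (right) or lower (left) in diabetic hearts, with the number tested in brackets; lists with no call are not drawn. The glucocorticoid and FoxO lists hold 5 rises each, the core clock list 4 rises and 2 falls, and the matrix list 3 falls; over all genes 1.32% were called.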

How the data were processed

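RNA from mouse myocardium was hybridised to single-colour Affymetrix arrays, 12 in all. The authors deposited log2 signals made with RMA, per the submitters' processing notes; its version and the genome build are not given in the sources used here. RMA equalises the arrays' distributions, so a change in total mRNA cannot be seen. Control probe sets (6923 of 29129) were used for the background level only. Of 22206 transcript probe sets 19572 had 1 symbol, naming 19505 genes. The probe set with the highest mean was kept and the dimmest 30% of genes (mean under 3.40) were left out.

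A mean per group was fitted to all 12 arrays with limma 3.58.1 in R 4.3.3 (lmFit, eBayes), with Benjamini-Hochberg adjustment over 13653 genes. The fit was tested on simulated data with 13653 genes, where it recovered 60% of genes changed by 0.5 and 96% changed by 1, with 5 false calls. Noise there was drawn separately for each gene and array, with equal changes in DM and AngIV. Array differences that many genes share were left out, so these rates do not measure recovery in the real arrays. The median SE was 0.11, and the number of arrays limits this precision. The series design gives 4 mice in each group.

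Genes were picked as the 15 largest shared rises and 15 largest shared falls with an NC or diabetic mean above background, the 10 smallest p-values, called members of 50 gene lists (up to 8 a list, or the 2 of smallest p), fixed genes such as Foxo1 and Becn1, and 5 called genes without a shared change. Of these, 1 gene is not reported here, and for lists without a call the 2 picks are mostly given as part of the list count. Other names were added after values were seen. The members, lists and rules were chosen with earlier results of these data known. Alternatives covered the model, filter, normalization, atrial markers and single arrays.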

Additional observations from a re-analysis of the deposited data

Results flagged for a closer look

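In 20 of 456 groups of arrays looked at (4.39%), over 17 genes, 1 array stood apart from the others of its group by Dixon's test; chance alone gives about 1 in 20. DM 1 stood apart in Ciart (4.43, other diabetic arrays 5.50 to 6.16), Abca1 (7.23, others 5.88 to 6.40) and, within DM, Wee1 (6.48, others 5.88 to 5.96). DM 2 was low in Myh6 (11.7, others 11.85 to 11.88). DM 4 was low in Slc1a5, an amino acid transporter (5.54, others 5.86 to 5.89), and in Eef2k, the kinase of elongation factor 2 (6.32, other DM arrays 6.81 to 6.83, other diabetic arrays up to 7.16).

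AngIV 1 stood apart in Bdh1 (7.56, others 5.86 to 5.93), Oxct1 (10.4, others 10.01 to 10.05), Col3a1 (6.63, others 5.73 to 5.88), Hikeshi (6.39, others 6.59 to 6.61) and Fndc5 (8.49, others 8.23 to 8.26). For Bdh1, Oxct1 and Col3a1 its value was nearer to NC than those of the other AngIV arrays. AngIV 2 stood apart in Foxo1 (5.25, others 5.72 to 5.73), Dad1 (8.99, others 9.19 to 9.22) and Fitm1 (7.60, others 7.44 to 7.46), and AngIV 4 in Ppargc1a (9.75, others 9.34 to 9.40). Of the NC arrays, NC 1 was low in Fndc5 (8.63, others 8.78 to 8.80), NC 2 was high in Mt1 (9.87, others 9.69 to 9.72) and low in Sqstm1 (9.09, others 9.28 to 9.30), and NC 3 was high in Fitm1 (8.35, others 7.95 to 7.96).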

How the results depend on the processing

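Against 180 called genes and 175 shared changes, a trend in the prior variance gave 433 and 401, leaving out the dimmest 50% 328 and 303, keeping genes above negative controls 460 and 405, and the atrial marker mean as a covariate 324 and 293. Fitting 2 groups gave 117, and the arrays low in Myl7 gave 1 and 1, with 1 DM array left. Asking that DM and AngIV each be called left 3 shared changes. Leaving out an array gave 49 to 338 called genes, 49 to 325 shared changes and 0 to 5 genes between AngIV and DM (1 without DM 2, 5 without AngIV 2); with the other settings that gave a value this last count was 0. No filter gave 123 called genes, array weights 134, a robust prior 183, averaged probe sets 180 and a second quantile normalization 178. With the replicate number as a block 138 were called, 116 of them among the 180, and the numbers did not pair the arrays: 2 of 12 same-number pairs correlated above 0.1.

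Of 2722 gene values under other settings 2082 kept direction and side of the threshold, 581 lost the call, 44 gained one and 15 turned sign, none in a called gene. Myh6 turned to -0.011 after a second quantile normalization and to -0.0079 with the atrial covariate, and Nppa to 0.094 with that covariate. On the arrays low in Myl7, Foxo1 turned to -0.038 and Becn1 to -0.059. With an array left out, Myh6 ranged from -0.024 to 0.035, Nppa from -0.68 to 0.22, Nppb from -0.23 to 0.27, Becn1 from -0.022 to 0.092 and Tgfb1 from -0.040 to 0.16. The cause was not tested. With 4 mice a group, genes near background and changes of about 0.5 are resolved least. The p-values set a difference between groups against the spread between these mice within groups, which limma moderates over all genes.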

Other observations

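Further called genes outside the gene lists, chosen after their values were seen, all had a shared change. Of genes tied to protein handling, Serpinh1, the collagen chaperone HSP47, fell 1.49-fold, from 7.44, 7.36, 7.65 and 7.72 in NC to 7.26, 6.95, 7.13 and 7.15 in DM and 7.22, 6.81, 6.57 and 6.63 in AngIV (limma adjusted p = 0.0317, called in 4 of the 12 fits with an array left out). All diabetic arrays were below NC. None of 20 heat shock genes was called, and 16 had a negative difference, against 49.9% of all genes. Chordc1, an HSP90 partner, differed by -0.48 (limma adjusted p = 0.0614). Cirbp, a cold-inducible RNA-binding protein, rose 1.47-fold, from 6.40, 6.45, 6.36 and 6.35 in NC to 6.67, 6.89, 6.69 and 6.53 in DM and 6.82, 7.05, 7.32 and 7.57 in AngIV (limma adjusted p = 0.0378, 4 of 12 fits), without overlap. Retreg1, a receptor for autophagy of the ER, rose 1.7-fold, from 8.29 to 8.68 in NC to 8.76 to 10.03 (limma adjusted p = 0.0448, 4 of 12 fits). Ezh1, a histone methyltransferase of the Polycomb group, rose 1.38-fold (limma adjusted p = 0.018, 10 of 12 fits).

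Several bright metabolic genes fell. Atp5g1, a c subunit of ATP synthase outside the list of oxidative phosphorylation subunits, fell 1.32-fold, from 11.19, 11.32, 11.30 and 11.31 in NC to 10.79, 10.78, 11.15 and 11.03 in DM and 10.85, 10.72, 10.90 and 10.84 in AngIV (limma adjusted p = 0.0392, 2 of 12 fits). Aifm1, a mitochondrial flavoprotein needed for complex I, fell 1.34-fold without overlap (limma adjusted p = 0.0378, 2 of 12 fits). Fitm1, a lipid droplet protein of muscle, fell 1.46-fold while Plin4 and Pnpla2 rose (limma adjusted p = 0.0378, 3 of 12 fits). Fndc5, the precursor of irisin, and Ckb, brain-type creatine kinase, fell 1.31-fold and 1.36-fold (limma adjusted p = 0.0424 and 0.0432, each in 3 of 12 fits). Ppp1r3a, the muscle glycogen-targeting subunit of protein phosphatase 1, rose 1.29-fold (limma adjusted p = 0.0424, 2 of 12 fits), Abcg2, an efflux pump, 1.72-fold (limma adjusted p = 0.0178, 11 of 12 fits) and Pim3, a growth-promoting kinase, 1.69-fold (limma adjusted p = 0.0259, 9 of 12 fits).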
